A study of Mus musculus with 39 samples.

Results

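The genes described here are 8 members of the plasminogen activator system and of the tissue factor arm of coagulation that is linked to it. They are Plau, Plaur, Plat, Serpine2, Serpinb2, F3, Tfpi and Tfpi2, chosen by name and found by symbol, and 8 of 8 were among the 20520 genes measured. RNA was sequenced from 39 PB2 mouse breast tumors, each grown from implanted PB2 cells that carried either FL-HER2 or p95HER2. FL-HER2 is the full-length form of the growth factor receptor HER2, and p95HER2 is the name of truncated HER2 fragments that lack most of the extracellular part. The 4 groups were FL-HER2 tumors at day 10 after implantation (n = 10), p95HER2 tumors at day 10 (n = 10), FL-HER2 tumors at day 22 (n = 9) and p95HER2 tumors at day 22 (n = 10), and the labels name no other allele or agent and no tumor without a HER2 construct. All groups therefore share the PB2 line and a HER2 construct, and the labels do not give the host strain, its age or the promoter of the construct. Nor do they say that each library came from a separate animal: by their column names tumors are numbered with 5 digits in 8 of 10 cases among the early FL-HER2 libraries (the title of replicate 8 gives 4), and with 3 digits in every other case, so some of those 8 may be pools, and p-values measure the spread between libraries only.

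Plasminogen, made mainly in the liver, becomes the fibrin- and matrix-degrading protease plasmin when it is cleaved by urokinase (Plau) or by tissue-type plasminogen activator (Plat). Urokinase is held at the cell surface by its receptor Plaur, and both activators are blocked by serpins, among them protease nexin-1 (Serpine2) and plasminogen activator inhibitor type 2 (Serpinb2). Tissue factor (F3) starts coagulation on cell surfaces and is held back by Tfpi, while the related Kunitz-type inhibitor Tfpi2 acts on plasmin and other trypsin-like proteases. In breast tumors urokinase, its receptor and the serpins that block it are known as markers of invasion, and they are made by tumor cells and by stromal cells.

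Total reads recovered per library ran from 21772259 to 44427621, so that 1 CPM (a gene's reads scaled to a fixed library total) stood for at least 21.8 reads. The 10 mammary epithelial markers were all detected, with a summed level between 1886 and 2995 CPM over the 39 libraries and none at 0 in any whole group. Markers of other cell types differed in level between groups: the 10 fibroblast markers summed to a median of 12410 CPM in FL-HER2 tumors at day 10, 5880 CPM in p95HER2 tumors at day 10, and 2571 and 1961 CPM in FL-HER2 and p95HER2 tumors at day 22. Skeletal muscle markers ranged from 14.3 to 36566 CPM, with the highest median (16296 CPM) in FL-HER2 tumors at day 10 and the lowest (230.4 CPM) in p95HER2 tumors at day 10. By the mean log2 value of the 7 tested epidermal markers, 11 libraries lay above the widest gap between libraries (5.15 to 6.59). Of these, 5 were p95HER2 day 10 tumors, 3 p95HER2 day 22 tumors, 2 FL-HER2 day 10 tumors and 1 an FL-HER2 day 22 tumor. In summed CPM the gap was narrow, 28.3 against 33.1. The 11 are called the libraries with epidermal RNA below, but the list summed to at least 9.23 CPM in every library. In whole tumors, fewer cells of a type and less RNA per cell cannot be told apart. Of the 8 members, 7 reached 1 CPM in 39 of 39 libraries; Serpinb2 did so in 16, of which 10 were the p95HER2 day 10 tumors, and it entered the test only through that group.

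Serpine2, the serpin that blocks thrombin, urokinase and tissue-type activator, was the most abundant member in every group, on a scale of CPM per kilobase of exon. Its mean level ran from 132 ± 16.7 (SD, n = 10) CPM per kilobase in FL-HER2 tumors at day 10 to 194 ± 21.2 (SD, n = 10) in p95HER2 tumors at day 22. No library of any group had another member at a level that reached its own group's lowest Serpine2 value. The gene lies on chromosome 1 from 79794197 to 79861180 on the minus strand (mm10).

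Below it, in FL-HER2 tumors at day 10, came Plau at 16.7, F3 at 14.7, Tfpi2 at 10.6, Plat at 6.84 and Plaur at 5.86 CPM per kilobase, and each neighbouring pair in that order overlapped. In p95HER2 tumors at day 10 the order was Plau (21.9 CPM per kilobase), Tfpi2 (14.2), F3 (11.4), Plaur (10.4) and Plat (5.91), again with every neighbouring pair overlapping. On this scale Plaur stood below Plat in one group and above it in the other. The exon lengths used were 2617 bases for Plaur and 6241 for Plat. In CPM the mean of Plaur was below that of Plat in both, 15.3 against 42.7 with FL-HER2 and 27.2 against 36.9 with p95HER2. By day 22 Plat had the lowest level per kilobase of these 5 genes in both constructs, at 1.83 CPM per kilobase with FL-HER2 and 2.44 with p95HER2. In the p95HER2 tumors it did not overlap Plaur (5.81). In CPM Plat was not the lowest at day 22. With FL-HER2 its mean was 11.4 CPM, above Plaur (8.93) and Tfpi2 (8.01). With p95HER2 Plat and Plaur both had a mean of 15.2 CPM, above Tfpi2 (10.4). Tfpi and Serpinb2 were the least abundant members in every group: Tfpi had 1.15, 0.747, 0.516 and 0.538 CPM per kilobase in FL-HER2 day 10, p95HER2 day 10, FL-HER2 day 22 and p95HER2 day 22 tumors, and Serpinb2 0.225, 0.829, 0.186 and 0.436.

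**Figure D1:**
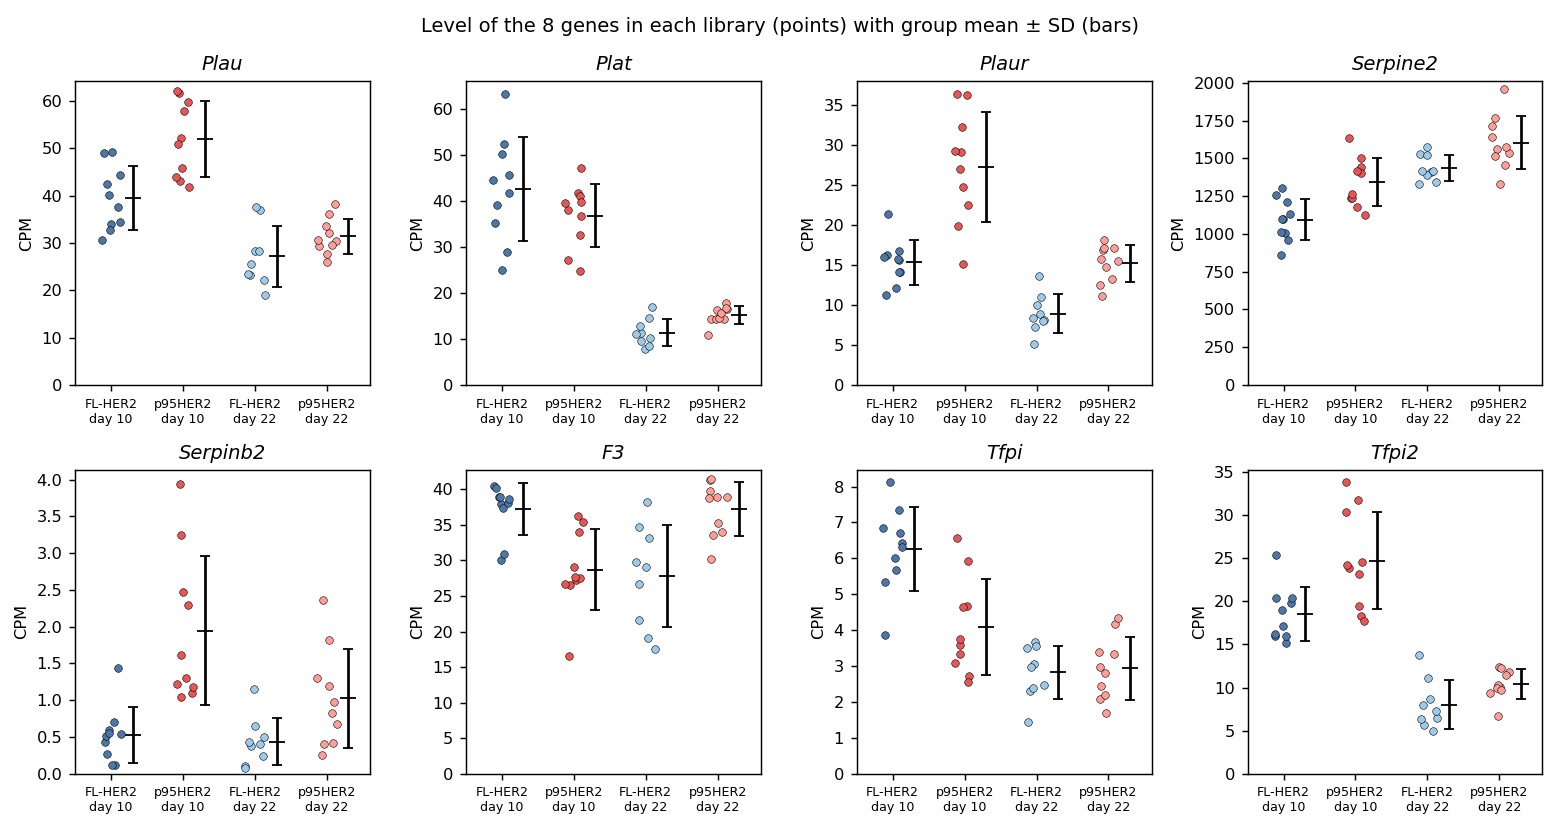
Level of each of the 8 genes in CPM (vertical axes, each starting at 0) in the 39 libraries, 1 point per library, with the group mean and SD as bars. Plaur points of p95HER2 tumors (red, pale red) lie mostly above those of FL-HER2 tumors (blue, pale blue) of the same day, Plat and Tfpi2 points drop between days without overlap, and F3 changes its order between days.

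Promoter sequence was on hand for 6 members (RefSeq, GRCm38.p6), and the AP-1 motif TGANTCA, the site of Fos and Jun factors, was searched on both strands in the 250 bases before each gene's first listed start. It was present for Plaur, F3 and Serpinb2, and 6.75% of 32851 promoter windows held it, further listed starts of genes included. The 3 first windows that hold it are shown because they are the ones with a match. The match is in capitals and the rest in lower case, 5′ to 3′ on the gene's plus strand.
Plaur, chr7:24462233-24462482: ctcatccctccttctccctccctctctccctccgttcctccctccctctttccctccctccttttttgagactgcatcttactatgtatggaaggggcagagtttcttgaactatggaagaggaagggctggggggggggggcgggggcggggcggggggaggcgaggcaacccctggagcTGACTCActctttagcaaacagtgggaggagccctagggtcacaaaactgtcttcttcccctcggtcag
F3, chr3:121723287-121723536: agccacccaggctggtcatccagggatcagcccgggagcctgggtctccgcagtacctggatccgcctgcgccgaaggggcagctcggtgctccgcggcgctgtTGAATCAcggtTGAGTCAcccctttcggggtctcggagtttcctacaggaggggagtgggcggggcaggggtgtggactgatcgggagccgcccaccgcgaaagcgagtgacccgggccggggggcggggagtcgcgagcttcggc
Serpinb2, chr1:107511173-107511422: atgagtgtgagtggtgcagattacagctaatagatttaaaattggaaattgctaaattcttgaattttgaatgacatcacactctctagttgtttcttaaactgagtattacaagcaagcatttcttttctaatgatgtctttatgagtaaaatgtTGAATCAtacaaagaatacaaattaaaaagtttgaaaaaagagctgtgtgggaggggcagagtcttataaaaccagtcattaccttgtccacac
The first base of the motif lies 69 bases before the start of Plaur, 146 and 135 bases before that of F3, and 94 bases before that of Serpinb2. In the first windows of Serpine2, Tfpi and Tfpi2 these letters were not found. Another listed start of Tfpi2 has 1 match, 77 bases before it. A match describes the sequence only.

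The first comparison asks how tumors with p95HER2 differed from those with FL-HER2 at day 10. The urokinase receptor Plaur, urokinase itself and both serpins were higher with p95HER2, as was Tfpi2, while tissue factor and its inhibitor Tfpi were lower. In all, 7 of the 8 members passed the test (limma, Benjamini-Hochberg adjusted p under 0.05 over 13650 genes), 5 higher and 2 lower, and 6 of 7 did without Serpinb2. Of all genes tested, 41.3% passed, 15.2% higher and 26.1% lower. The median log2 difference of the 8 members was 0.29 (0.24 without Serpinb2), against -0.04 over all genes tested. The groups were disjoint for 0 of 8 members, against 3.14% of all genes.

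Plaur, the surface receptor that concentrates urokinase activity on the cell, ranged in FL-HER2 tumors at day 10 from 11.2 to 21.3 CPM with a median of 15.7 (mean 15.3 ± 2.78, SD, n = 10). In p95HER2 tumors it ranged from 15.1 to 36.4 CPM with a median of 28.0 (mean 27.2 ± 6.91, SD, n = 10). The groups overlapped, with 8 of the 10 p95HER2 libraries above the highest FL-HER2 library. The log2 difference was 0.74 ± 0.14 (SE), or 1.67-fold on the log2(normalized count + 1) scale used throughout, with a limma adjusted p of 7.49e-05. The gene lies on chromosome 7 from 24462484 to 24475968 on the plus strand, and its promoter holds 1 AP-1 motif.

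Urokinase, the ligand of that receptor, moved less. Plau values were 30.7 to 49.3 CPM with FL-HER2 (median 38.9, mean 39.5 ± 6.69, SD, n = 10) and 41.7 to 62.1 CPM with p95HER2 (median 51.5, mean 51.9 ± 8.03, SD, n = 10). The ranges overlapped, and each of the 10 p95HER2 libraries was above the FL-HER2 median. Its log2 difference was 0.34 ± 0.11 (SE; limma adjusted p = 0.0159). Plau lies on chromosome 14 from 20836660 to 20843385 on the plus strand.

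For Plat, the activator best known from the vessel wall and from fibrin clots, no difference passed the test. It lay between 25.1 and 63.4 CPM with FL-HER2 (median 43.2, mean 42.7 ± 11.4, SD, n = 10) and between 24.8 and 47.2 CPM with p95HER2 (median 38.9, mean 36.9 ± 6.86, SD, n = 10). Most of the p95HER2 range lay inside the FL-HER2 range. The log2 difference was -0.24 ± 0.14 (SE; limma adjusted p = 0.165), with a 95% interval from -0.53 to 0.04. Plat lies on chromosome 8 from 22757727 to 22782844 on the plus strand.

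Both serpins were higher with p95HER2 at day 10. Serpine2 values ran from 861 to 1301 CPM with FL-HER2 (median 1100.2, mean 1095 ± 138, SD, n = 10) and from 1127 to 1634 CPM with p95HER2 (median 1335, mean 1344 ± 160.5, SD, n = 10). The difference was small beside its level, 0.24 ± 0.07 on the log2 scale (SE; limma adjusted p = 0.0053), with 5 of the 10 p95HER2 libraries above the highest FL-HER2 library. Serpinb2, a largely intracellular serpin that blocks urokinase when released, stood at 0.113 to 1.44 CPM with FL-HER2 (median 0.531, mean 0.529 ± 0.377, SD, n = 10; 4 to 50 reads) and at 1.05 to 3.94 CPM with p95HER2 (median 1.46, mean 1.95 ± 1.01, SD, n = 10; 34 to 138 reads). These are low counts, no library was at 0, and the ranges met only through 1 FL-HER2 library, replicate 4. The log2 difference was 1.90 ± 0.42 (SE, 3.74-fold; limma adjusted p = 0.000396), but as the p95HER2 day 10 group alone brought the gene past the filter, its call lends no support of its own. Serpinb2 lies on chromosome 1 from 107511423 to 107535478 on the plus strand, and 291 of its 2349 exon bases are shared with Serpinb10 on the same strand, so reads there cannot be given to one gene with certainty.

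Tissue factor and its inhibitor went the other way. F3, the receptor for factor VII, ranged from 30.1 to 40.5 CPM with FL-HER2 (median 38.4, mean 37.2 ± 3.64, SD, n = 10) and from 16.6 to 36.3 CPM with p95HER2 (median 27.6, mean 28.7 ± 5.69, SD, n = 10). All 10 p95HER2 libraries were below the FL-HER2 median and 7 were below the lowest FL-HER2 library. F3 fell by 0.45 on the log2 scale (SE 0.11; limma adjusted p = 0.00173). It lies on chromosome 3 from 121723537 to 121735048 on the plus strand, and 2 AP-1 motifs stand in its promoter.

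Tfpi, the Kunitz-type inhibitor of the tissue factor complex, is made largely by endothelial cells. Its values were 3.86 to 8.13 CPM with FL-HER2 (median 6.37, mean 6.26 ± 1.17, SD, n = 10) and 2.54 to 6.56 CPM with p95HER2 (median 3.67, mean 4.08 ± 1.34, SD, n = 10), with 6 p95HER2 libraries below the lowest FL-HER2 library. The log2 difference was -0.71 ± 0.18 (SE; limma adjusted p = 0.0014). Tfpi lies on chromosome 2 from 84432855 to 84476775 on the minus strand.

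Tfpi2, secreted into the matrix and known as an inhibitor of plasmin, had 15.2 to 25.4 CPM with FL-HER2 (median 18.03, mean 18.5 ± 3.12, SD, n = 10) and 17.7 to 33.8 CPM with p95HER2 (median 24.1, mean 24.7 ± 5.62, SD, n = 10). The groups overlapped over much of their range. Its log2 difference of 0.34 ± 0.14 (SE; limma adjusted p = 0.0476) sat close to the threshold, and the call was lost on leaving out any of 14 of the 20 day 10 libraries, with adjusted p up to 0.101. It was also lost in 7 of the 16 other settings: with no filter (0.34, adjusted p = 0.0628), without the 11 libraries with epidermal RNA (0.22, 0.384), with the term for digits of the tumor number (0.23, 0.61), and with the muscle (0.32, 0.18), fibroblast (0.66, 0.079), macrophage (0.40, 0.184) or endothelial score (0.38, 0.132). Tfpi2 lies on chromosome 6 from 3962595 to 3988919 on the minus strand.

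Markers of other cell types moved with this comparison: 8 of 10 fibroblast, 8 of 10 endothelial, 9 of 10 macrophage and 15 of 15 skeletal muscle markers were lower with p95HER2. Summed endothelial markers ran from 181 to 320 CPM with FL-HER2 and from 134 to 278 CPM with p95HER2, and summed macrophage markers from 679 to 1018 CPM and from 369 to 859 CPM, and no marker of these lists was at 0 in a whole group. Plaur kept its call in each of the 16 other settings tried (log2 difference 0.65 to 1.15, adjusted p up to 0.0493). Tfpi did not: with the fibroblast marker score of each library as a covariate its difference was 0.21 (adjusted p = 0.68), and with the endothelial score -0.09 (0.735). The F3 difference was -0.35 with the fibroblast score (adjusted p = 0.311), -0.36 with the macrophage score (0.137) and -0.35 with the endothelial score (0.0812), and Plat reversed to 0.57 with the fibroblast score (0.0367) and fell to -0.50 without the 11 libraries with epidermal RNA (0.0368). Plau was not called without those libraries (0.29, adjusted p = 0.12) or with the fibroblast (0.33, 0.334) or endothelial score (0.39, 0.051). Serpine2 and Serpinb2 were not called with the macrophage score (0.18, adjusted p = 0.238, and 1.63, 0.0665), nor was Tfpi with it (-0.53, 0.162) or after quantile normalization (-0.33, 0.12). A term for the number of digits of the tumor number, which rests on 2 FL-HER2 day 10 libraries, left Plau at 0.23 (adjusted p = 0.513), F3 at -0.33 (0.313) and Tfpi at -0.24 (0.664), all uncalled, and Plat at 0.40 (0.221).

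**Figure D2:**
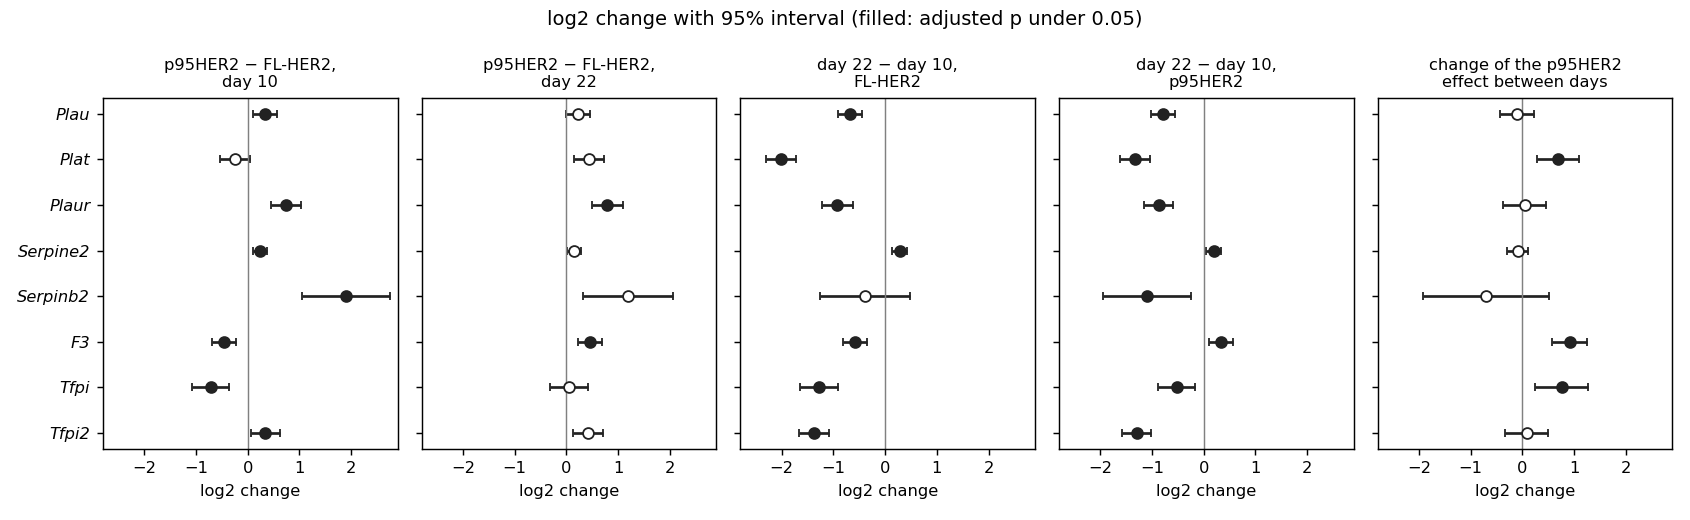
The log2 change of each of the 8 genes (one line each) in 5 comparisons (panels), as points with 95% intervals; filled points have a limma adjusted p under 0.05. Plaur is higher with p95HER2 on both days, by 0.74 and 0.79, F3 is lower at day 10 and higher at day 22, and Plau, Plaur, Plat, Tfpi and Tfpi2 fall with time in both constructs.

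Among 54 further genes of plasminogen and coagulation biology, all 54 were measured and 34 passed the filter on low values. At day 10, 4 were higher and 6 lower with p95HER2 (29.4% called), and their median log2 difference was -0.02. Both called anticoagulant genes were lower: Thbd, encoding the thrombin receptor thrombomodulin, had 15.5 ± 3.63 CPM with FL-HER2 and 7.10 ± 1.89 CPM with p95HER2 (SD, n = 10 each; log2 difference -1.19 ± 0.17, SE, limma adjusted p = 1.00e-06), and Gas6, a relative of protein S known mainly as a ligand of receptor kinases, differed by -0.60 ± 0.10 (4.63e-06). In the inhibitor list Serpinf1 differed by -1.10 ± 0.17 (SE; limma adjusted p = 4.81e-06), and it encodes a serpin that blocks no protease. Mrc2, a collagen uptake receptor that associates with the urokinase receptor, differed by -0.98 ± 0.18 (4.17e-05). With the fibroblast score as a covariate the Serpinf1 and Mrc2 differences reversed, to 0.24 and 0.11.

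The second comparison sets the constructs against each other at day 22. The urokinase receptor was again higher with p95HER2, and tissue factor, lower at day 10, was now higher. Of the 8 members 2 passed the test, both higher, where 4.52% of all genes passed, 2.98% higher and 1.54% lower. The members' median log2 difference was 0.43 (0.42 without Serpinb2), against -0.01 over all genes tested. No member had disjoint groups (0 of 8, against 0.293% of all genes).

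Plaur ranged from 5.17 to 13.6 CPM with FL-HER2 at day 22 (median 8.32, mean 8.93 ± 2.399, SD, n = 9) and from 11.1 to 18.1 CPM with p95HER2 (median 15.6, mean 15.2 ± 2.30, SD, n = 10). In 7 of the 10 p95HER2 libraries it exceeded the highest FL-HER2 library. The log2 difference of 0.79 ± 0.15 (SE, 1.73-fold; limma adjusted p = 0.000595) kept its call in all 16 other settings, between 0.72 and 0.97. Not all of these could move it: the term for digits cannot, as every day 22 tumor number has 3 digits.

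F3 ranged from 17.6 to 38.2 CPM with FL-HER2 (median 29.1, mean 27.8 ± 7.16, SD, n = 9) and from 30.2 to 41.5 CPM with p95HER2 (median 38.8, mean 37.2 ± 3.75, SD, n = 10). The FL-HER2 libraries were widely spread, the p95HER2 libraries close together, and all 10 of the latter were above the FL-HER2 median. The log2 difference was 0.46 ± 0.12 (SE; limma adjusted p = 0.0177). It was no longer called without FL-HER2 replicate 1 (0.40, adjusted p = 0.0574) or replicate 3 (0.41, 0.0513), without the 11 libraries with epidermal RNA (0.38, 0.159), or with the endothelial score as a covariate (0.41, 0.0719).

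The other members did not pass the test at day 22, though some did in other settings. Plat had 7.73 to 16.99 CPM with FL-HER2 (median 11.1, mean 11.4 ± 2.95, SD, n = 9) and 10.8 to 17.9 CPM with p95HER2 (median 15.1, mean 15.2 ± 1.98, SD, n = 10), a log2 difference of 0.44 ± 0.14 (SE; limma adjusted p = 0.0743). The interval for it, 0.14 to 0.73, lay above 0, as did those of Tfpi2, Serpine2 and Serpinb2. These intervals are not adjusted for the number of genes tested. A call for Plat appeared without FL-HER2 replicate 6 (0.51, adjusted p = 0.0248) or p95HER2 replicate 8 (0.49, 0.045). Plat was called in 4 of the 16 other settings too: with the fit on the groups compared (0.44, adjusted p = 0.042), library weights (0.39, 0.0365), the term for digits of the tumor number (0.44, 0.0326) and the fibroblast score (0.58, 0.000648). The digits term and the fit on the groups compared cannot move this difference, only its SE and adjusted p. Plat was not called in the other 12, among them voom (0.47, adjusted p = 0.143) and the endothelial score (0.26, 0.36). Nor was it called without the 11 libraries with epidermal RNA (0.39, 0.234). Tfpi2 had 4.99 to 13.8 CPM with FL-HER2 (median 7.23, mean 8.01 ± 2.82, SD, n = 9) and 6.74 to 12.4 CPM with p95HER2 (median 10.2, mean 10.4 ± 1.69, SD, n = 10), a log2 difference of 0.42 ± 0.14 (limma adjusted p = 0.0863). For Tfpi2 the p95HER2 range lay inside that of FL-HER2. It was called with library weights (0.42, adjusted p = 0.037), with the fibroblast score (0.48, 0.039), and without FL-HER2 replicate 6 (0.52, 0.0137) or p95HER2 replicate 6 (0.49, 0.0302).

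Urokinase had 19.1 to 37.5 CPM with FL-HER2 (median 25.6, mean 27.2 ± 6.396, SD, n = 9) and 25.9 to 38.2 CPM with p95HER2 (median 30.5, mean 31.4 ± 3.73, SD, n = 10). The log2 difference of Plau was 0.23 ± 0.12 (SE; limma adjusted p = 0.305; 95% interval -0.01 to 0.46), and it was called with library weights (0.32, 0.0258). Serpine2, the abundant serpin, had 1333 to 1579 CPM with FL-HER2 (median 1415, mean 1439 ± 86.6, SD, n = 9) and 1329 to 1958 CPM with p95HER2 (median 1572, mean 1605 ± 176, SD, n = 10), a log2 difference of 0.15 ± 0.07 (limma adjusted p = 0.261). Serpinb2 stayed near 1 CPM or below in most libraries, with 0.0826 to 1.15 CPM and FL-HER2 (median 0.405, mean 0.437 ± 0.324, SD, n = 9; 2 to 25 reads) against 0.252 to 2.37 CPM and p95HER2 (median 0.899, mean 1.02 ± 0.672, SD, n = 10; 9 to 84 reads). At such counts its log2 difference of 1.20 carried an SE of 0.43 (limma adjusted p = 0.104), and it was called without FL-HER2 replicate 6 (1.40, 0.0404) or p95HER2 replicate 3 (1.38, 0.0463). Tfpi values, 1.44 to 3.67 CPM with FL-HER2 (median 2.96, mean 2.82 ± 0.734, SD, n = 9) and 1.68 to 4.33 CPM with p95HER2 (median 2.89, mean 2.94 ± 0.875, SD, n = 10), covered nearly the same range. The log2 difference of Tfpi was 0.05 ± 0.18 (SE; limma adjusted p = 0.927; 95% interval -0.32 to 0.41).

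Marker lists differed less between the constructs at day 22: 0 of 10 fibroblast markers, 2 of 10 macrophage markers (both lower) and 1 of 10 endothelial markers (higher) passed the test. Of the 34 further pathway genes 4 were higher with p95HER2 and 0 lower (11.8% called; median log2 difference 0.12). F2rl1, a receptor that trypsin-like proteases and the tissue factor complex cleave, had 24.2 ± 4.98 CPM with FL-HER2 (SD, n = 9) and 35.0 ± 3.20 CPM with p95HER2 (SD, n = 10; log2 difference 0.55 ± 0.10, SE, limma adjusted p = 0.000307). Hpn, the membrane protease hepsin, which can activate urokinase, differed by 0.21 ± 0.06 (SE; limma adjusted p = 0.0474), and its call was lost on leaving out any of 13 of the 19 day 22 libraries. The fibrinogen chain gene Fgg, also called, was at 0.14 and 0.737 CPM, a level outside the naming rule, and was named after its values were seen.

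Over time, most members fell in FL-HER2 tumors. Between day 10 and day 22 both activators, the urokinase receptor, tissue factor and both Tfpi genes fell, and Serpine2 rose. In all 7 of the 8 members passed the test, 1 higher and 6 lower, where 51.4% of all genes did, 20.7% higher and 30.6% lower. The members' median log2 change was -0.80, against -0.03 over all genes tested. The days did not overlap for 4 of 8 members, against 9.25% of all genes.

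Plat fell by 2.01 on the log2 scale (SE 0.14; limma adjusted p = 4.07e-14), the most of the members, from a median of 43.2 to one of 11.1 CPM, and no day 22 library reached the lowest day 10 library. Tfpi2 fell by 1.38 (SE 0.14; limma adjusted p = 3.87e-10) and Tfpi fell by 1.28 (SE 0.18; limma adjusted p = 2.37e-07), also without overlap. Plaur fell by 0.92 (SE 0.15; limma adjusted p = 2.06e-06), with 8 of 9 day 22 libraries below the lowest day 10 library. Tissue-type activator, the urokinase receptor and both Kunitz-type inhibitors were therefore lower in the later FL-HER2 tumors. Plau fell by 0.67 (SE 0.12; limma adjusted p = 8.57e-06) and F3 fell by 0.58 (SE 0.12; limma adjusted p = 9.38e-05), each with overlap. The rise of Serpine2, 0.28 ± 0.07 (SE; limma adjusted p = 0.00106), was small but left the days disjoint, 861 to 1301 CPM against 1333 to 1579 CPM. For Serpinb2 the change of -0.39 ± 0.43 did not pass (limma adjusted p = 0.466).

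Fibroblast RNA fell alongside: 10 of 10 fibroblast markers were lower at day 22, with 10 of 10 endothelial markers lower as well. The fibroblast sum went from 6980 to 20225 CPM at day 10 down to 1016 to 2953 CPM. Other lists moved too: 5 of 10 mammary epithelial markers were lower and 1 higher (median log2 change -0.42). Both tested platelet markers were lower. With the fibroblast score as a covariate Plat kept its call (-0.79, adjusted p = 0.0436), Tfpi did not (0.09, 0.937), and the members called went from 7 to 1. F3 was also uncalled with the term for digits (-0.46, adjusted p = 0.103). The fibroblast sums of the 2 days did not overlap in FL-HER2 tumors, so the parts of day and fibroblast level in these changes cannot be told apart. Of the 34 further pathway genes 1 rose and 20 fell (61.8%; median log2 change -0.48), among them 5 of 7 tested inhibitors. Serpinf1 fell by 2.03 (SE 0.18; limma adjusted p = 7.31e-12), and Mrc2 fell by 1.70 (SE 0.19; limma adjusted p = 9.25e-10). Anxa2, which binds plasminogen at the cell surface, fell by 0.88 (SE 0.09; limma adjusted p = 6.49e-10).

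In p95HER2 tumors the same interval brought a change in all 8 members, 2 higher and 6 lower, where 35.2% of all genes passed, 16.6% higher and 18.6% lower. Both activators, Plaur, Serpinb2, Tfpi and Tfpi2 fell, and Serpine2 and F3 rose. The members' median log2 change was -0.83, against 0.00165 over all genes tested, and for 3 of 8 the days did not overlap, against 7.17% of all genes. Serpinb2 entered the test through its day 10 values in this construct, so its fall is no evidence beyond them.

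Again without overlap, Plat fell by 1.33 (SE 0.14; limma adjusted p = 8.02e-10) and Tfpi2 fell by 1.298 (SE 0.14; limma adjusted p = 1.37e-09). Plau fell by 0.78 (SE 0.11; limma adjusted p = 6.22e-07), from 41.7 to 62.1 CPM down to 25.9 to 38.2 CPM, also without overlap. Plaur fell by 0.87 (SE 0.14; limma adjusted p = 4.98e-06), with overlap. Urokinase and its receptor were thus both lower at the later day in this construct too. Tfpi fell by 0.53 (SE 0.18; limma adjusted p = 0.018), and this change was 0.09 with the fibroblast score as a covariate (0.769). Serpinb2 fell by 1.09 (SE 0.42; limma adjusted p = 0.0391), a call lost on leaving out any of 8 of the 20 libraries. The Serpinb2 call was also lost in 4 of its 15 other settings, over which the change ran from -1.47 to -0.54 (adjusted p up to 0.344). F3 rose by 0.33 ± 0.11 (SE; limma adjusted p = 0.0217), with 10 of 10 day 22 libraries above the day 10 median, but not past the threshold without p95HER2 day 10 replicate 5 (0.25, 0.0597). Serpine2 rose by 0.19 ± 0.07 (limma adjusted p = 0.0273), a call lost on leaving out any of 5 libraries. Of 16 other settings, 2 lost the call for Serpine2 (adjusted p up to 0.123) and 2 that for F3 (up to 0.0561). Without the 11 libraries with epidermal RNA the changes of Serpine2 (0.19, adjusted p = 0.123), Serpinb2 (-1.47, 0.0599), F3 (0.39, 0.0561) and Tfpi (-0.49, 0.142) were not called, while those of Plau, Plaur, Plat and Tfpi2 were.

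Fibroblast markers fell here too, 8 of 10, from 4131 to 9134 CPM in sum at day 10 down to 1376 to 2651 CPM. These sums did not overlap between days either, so the parts of day and fibroblast level cannot be told apart in this construct. Of 10 endothelial markers 1 was lower and 1 higher. Of 10 mammary epithelial markers 5 were lower and 2 higher (median log2 change -0.54), and 1 of 2 tested platelet markers was lower. Of the 34 further pathway genes 2 rose and 15 fell (50%; median log2 change -0.31). Anxa2 fell by 0.73 (SE 0.09; limma adjusted p = 3.87e-08), from 766 ± 111 to 484 ± 66.5 CPM (SD, n = 10 each). Lrp1, the receptor that clears protease and serpin complexes, fell by 0.62 (SE 0.10; limma adjusted p = 1.91e-06), and Vldlr, a related receptor, rose by 0.55 ± 0.07 (1.52e-07). F13a1, the subunit of the enzyme that crosslinks fibrin, fell by 1.27 (SE 0.17; limma adjusted p = 1.87e-07).

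The last comparison tests whether the difference between constructs changed between days, and it uses the same libraries as the 4 others. F3, Plat and Tfpi passed, all with a higher p95HER2 difference at day 22 than at day 10, so 3 of 8 members were called where 19.6% of all genes were, 13.5% higher and 6.2% lower. The median over the members was 0.06 and over all genes tested 0.04. For F3 the difference went from -0.45 at day 10 to 0.46 at day 22, a change of 0.91 ± 0.16 (SE; limma adjusted p = 0.000207). The tissue factor gene was therefore lower with p95HER2 in the early tumors and higher in the late ones. Its change stayed between 0.76 and 0.91 in all 15 other settings, and was past the threshold in 13: it was 0.79 with a term for the number of digits of the tumor number (adjusted p = 0.0664) and 0.76 with the endothelial score (0.0534).

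The Plat difference went from -0.24 to 0.44, a change of 0.68 ± 0.20 (SE; limma adjusted p = 0.0159), and that of Tfpi from -0.71 to 0.05, a change of 0.76 ± 0.25 (SE; limma adjusted p = 0.0311). In both, as in F3, the change between days was upward, and so it was for 68.5% of all genes called in this test. Of the stromal lists, 7 of 10 fibroblast and 9 of 10 endothelial markers were called higher. With the fibroblast score as a covariate the change was 0.01 for Plat (adjusted p = 0.989) and 0.00 for Tfpi (0.9997), and with the endothelial score 0.12 (0.832) and -0.14 (0.82). The term for digits gave 0.03 (adjusted p = 0.967) and 0.29 (0.734), the macrophage score 0.60 (0.0575) and 0.66 (0.0979), and quantile normalization left Tfpi at 0.49 (0.148). Without FL-HER2 day 22 replicate 4 the Tfpi change was 0.65 and not called (0.0562).

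For Plaur the 2 differences, 0.74 and 0.79, were nearly the same size, and their change was 0.05 ± 0.20 (SE; limma adjusted p = 0.894), with a 95% interval from -0.37 to 0.46. The intervals of the remaining members also spanned 0: the change was -0.11 ± 0.16 for Plau (limma adjusted p = 0.664) and -0.09 ± 0.10 for Serpine2 (0.543). It was 0.08 ± 0.20 for Tfpi2 (limma adjusted p = 0.811) and -0.70 ± 0.60 for Serpinb2 (0.426). These intervals do not show that the constructs acted alike on both days. Of the 34 further pathway genes 5 were called, all higher (14.7%; median 0.17). Thbd changed by 1.35 ± 0.24 (SE; limma adjusted p = 0.000209), as its 15.5 CPM in FL-HER2 tumors at day 10 stood above 7.10, 6.24 and 6.92 CPM in the p95HER2 day 10, FL-HER2 day 22 and p95HER2 day 22 tumors. Serpinf1, Mrc2 and Gas6 changed by 1.02 ± 0.25, 0.80 ± 0.26 and 0.52 ± 0.14, with limma adjusted p of 0.00396, 0.0266 and 0.00686, and the first 2 reversed with the fibroblast score, to -0.09 and -0.10. The coagulation factor gene F5, the other called gene, had a mean under 2 CPM in every group and is named to complete the count.

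**Figure D3:**
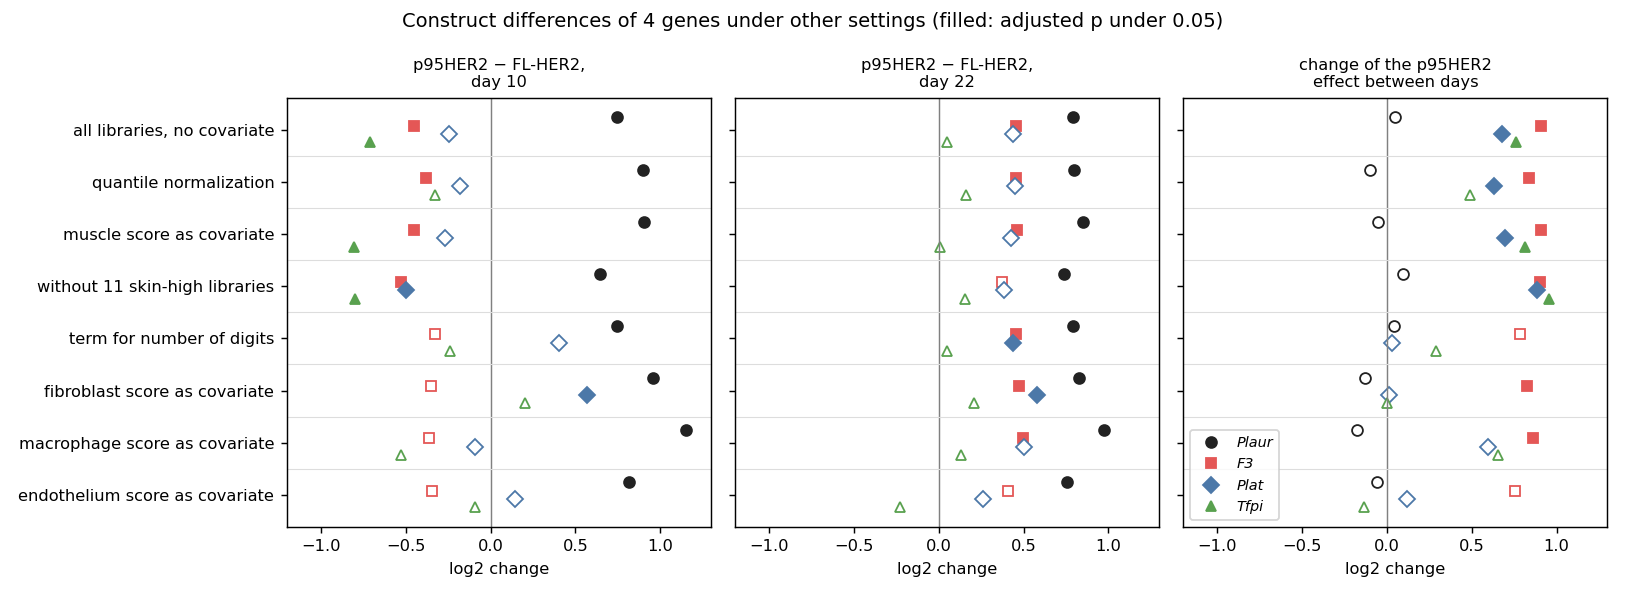
The log2 difference between constructs at day 10 and at day 22, and its change between days (panels), for Plaur, F3, Plat and Tfpi with all libraries and no covariate (top line) and in 7 other settings; filled symbols have a limma adjusted p under 0.05. Plaur keeps its side and its filled symbol in both comparisons of constructs, and the day 10 differences of Plat and Tfpi move toward or past 0 with fibroblast and endothelial scores as covariates, while with the fibroblast score their day 22 differences move away from 0, to 0.58 and 0.21.

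The members differed in how closely they followed stromal markers from library to library. Over the 39 libraries, as deviations from their group means, the fibroblast score had a Pearson r of 0.70 with Plat (Spearman rho 0.66, r without the 2 farthest libraries 0.69) and 0.65 with Tfpi (rho 0.59, 0.55). With the endothelial score r was 0.69 for Tfpi (rho 0.71, 0.67) and 0.54 for Plat (rho 0.46, 0.54). Plau, Plaur and F3 had an r of -0.01, 0.18 and 0.11 with the fibroblast score. Serpine2 had 0.47 with the endothelial score (rho 0.44, 0.46), and Plaur had 0.44 with the macrophage score (rho 0.40, 0.35). With the mammary epithelial score r was 0.41 for Plaur (rho 0.47, 0.39) and 0.50 for Tfpi2 (rho 0.49, 0.50). For Tfpi it was -0.37 (rho -0.36, -0.32). Plaur had an r of 0.53 with the score of the 2 neutrophil markers tested (rho 0.55, 0.56). At day 10 the list of 6 summed to 6.14 to 31.4 CPM in p95HER2 tumors (median 10.9). In FL-HER2 tumors it summed to 7.77 to 11.1 CPM (median 9.74). Of the 2 tested markers 1 was higher with p95HER2 at day 10 and 1 lower. The part of neutrophil RNA in the Plaur difference was not tested. The score of 2 platelet markers had an r of 0.61 with Plat (rho 0.57, 0.65), 0.59 with F3 (rho 0.46, 0.43) and 0.57 with Plaur (rho 0.40, 0.45), and their list of 4 summed to 5.54 to 23.7 CPM with p95HER2 and 12.7 to 26.4 CPM with FL-HER2 at day 10. The part of platelet RNA was not tested either. These correlations describe libraries that share their depth and scaling, and n was 39 in each.

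**Figure D4:**
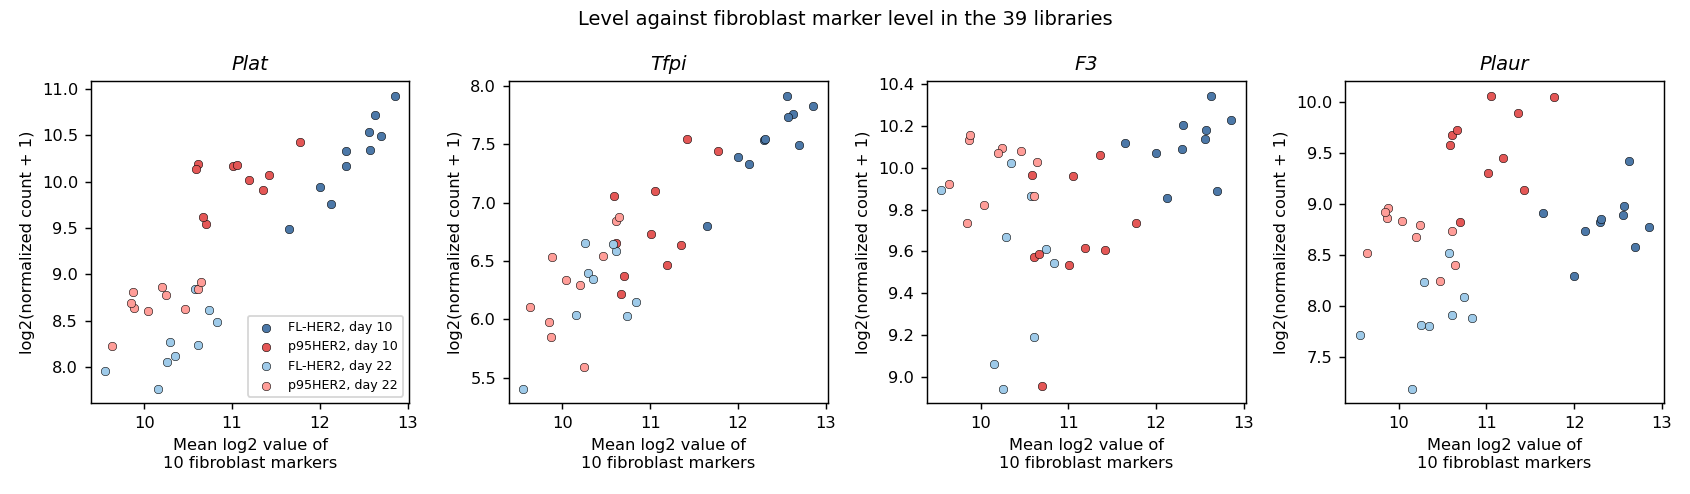
Level of Plat, Tfpi, F3 and Plaur (vertical axes, log2 of the normalized count + 1) against the mean log2 value of 10 fibroblast markers (horizontal axes) in the 39 libraries, colored by group. Plat and Tfpi rise with the marker level within and across groups, while Plaur of p95HER2 tumors lies above that of FL-HER2 tumors at lower marker levels.

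Among the members themselves Plaur and Tfpi2 had an r of 0.57 (rho = 0.60, 0.55 without the 2 farthest libraries, n = 39). Plat had an r of 0.55 with Tfpi (rho = 0.47, 0.47) and 0.44 with Tfpi2 (rho = 0.53, 0.62). Plaur and F3 had an r of 0.53, which was 0.33 without the 2 farthest libraries. Urokinase and its own receptor had an r of 0.09 (rho = 0.19), which was 0.29 without the 2 farthest libraries. Of all tested genes, those most like each member by the same measure (n = 39) were P3h1 (0.85), Sparc (0.85) and Angptl2 (0.83) for Plat, and Nid1 (0.79), Prrx1 (0.75) and Myl9 (0.75) for Tfpi. For Plaur they were Noct, Ctsl and Tnfrsf12a (0.79 each), and for Plau Ogfrl1 (0.78), Actb (0.78) and Gnl1 (0.75). F3 was most like Tmed4 (0.86), Ost4 (0.84) and Cd9 (0.84), and Tfpi2 most like Prss22 (0.75), Slc25a24 (0.67) and Il1rl1 (0.65). Serpine2 was most like Ap3s1 (0.76), Cdkn2b (0.76) and B4gat1 (0.74), and Serpinb2 most like Ubald1 (0.70), with Gabarapl1 (0.65) also among its 3 highest.

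The levels of the activators can be set side by side as ratios, which were not tested. Per kilobase, the ratio of Plau to Plat had a median of 2.26 in FL-HER2 tumors at day 10 (1.44 to 4.50) and 3.70 in p95HER2 tumors at day 10 (2.76 to 6.55). At day 22 it was 5.86 (4.25 to 12.6) and 5.34 (4.11 to 7.46). The days overlapped in both constructs. Urokinase RNA exceeded that of tissue-type activator in each of the 39 libraries on this scale. That order depends on the exon lengths used, 2367 bases for Plau and 6241 for Plat. In CPM the mean of Plau was below that of Plat in FL-HER2 tumors at day 10, 39.5 against 42.7. It was above Plat in p95HER2 day 10 (51.9 against 36.9), FL-HER2 day 22 (27.2 against 11.4) and p95HER2 day 22 tumors (31.4 against 15.2). The ratio of Plau to Plaur had medians of 2.73 and 2.08 at day 10, and 3.005 and 2.33 at day 22, for FL-HER2 and p95HER2, and that of F3 to its inhibitor Tfpi 12.7 and 16.1 at day 10, and 21.1 and 28.3 at day 22. All 3 ratios overlapped between the constructs on each day.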

How the data were processed

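Directional libraries of poly(A) RNA from 39 tumors were sequenced (per the labels' protocols). The submitters' processing notes name STAR 2.4.2a, the mm10 build and DESeq2; which program counted the reads, on which annotation, with which strand setting and filters is not given in the sources used here. Although named CPM, the deposited table holds log2(read count / size factor + 1): with the log2 undone, 100% of its values were whole multiples of the library's own step (tolerance 0.001). The deposited log2 values were used as they stand, and CPM was computed from the recovered reads. No 2 libraries were identical.

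Tested were the 13650 genes with 1 CPM or more in 9 or more libraries. They were fitted with limma 3.58.1 (trend, R 4.3.3, two-sided) over all 39 libraries, with 1 coefficient per group and 5 contrasts. Calls have a Benjamini-Hochberg adjusted p under 0.05 over all tested genes, and the script was tested on simulated data. A list score is the mean log2 value of its tested markers. Likeness is Pearson's r of deviations from group means, and the 3 highest genes per member are named. From the pathway list, up to 4 called genes per contrast with the smallest adjusted p and at least 5 CPM in 1 group mean are named. Gene positions and exon lengths are from GENCODE M21 (GRCm38, the assembly of mm10), promoters from RefSeq (GRCm38.p6). An exon length counts each base covered by any annotated exon of the gene once. Other settings were 13 planned ones and 3 marker score covariates added after seeing the data, plus leaving out each library. Members and lists were chosen with earlier results of these data known. One gene that these rules take is not reported here.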

Additional observations from a re-analysis of the deposited data

Results flagged for a closer look

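Among the 32 sets of values tested (8 genes in 4 groups), 5 held a library that stood far from the others, and chance gives about 1 in 20 such sets. F3 had 16.6 CPM in p95HER2 day 10 replicate 5, where the next lowest of the group was 26.6 CPM. Plat had 10.8 CPM in p95HER2 day 22 replicate 8, against 14.4 CPM in the next lowest. Tfpi2 had 6.74 CPM in p95HER2 day 22 replicate 6, against 9.42 CPM, and 25.4 CPM in FL-HER2 day 10 replicate 7, where the next highest was 20.4 CPM. Serpinb2 had 1.44 CPM in FL-HER2 day 10 replicate 4, against 0.707 CPM in the next highest.

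The difference between constructs changed between days, by a test of the change itself, for F3 by 0.91, for Tfpi by 0.76 and for Plat by 0.68 on the log2 scale (limma adjusted p = 0.000207, 0.0311 and 0.0159).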

How the results depend on the processing

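Over the members and comparisons, 549 values under the 16 other settings kept their direction and their side of the threshold, 48 lost the call, 8 gained it and 22 changed sign. Plaur between constructs kept its call on both days in all of them. Members called at day 10 (7) became 3 with a term for the digits of the tumor number, 4 with the fibroblast, 2 with the macrophage and 3 with the endothelial score. At day 22 (2) they became 5 with library weights, 1 without the 11 epidermal libraries, 4 with the fibroblast and 1 with the endothelial score. Over time they became 1 (from 7, FL-HER2, fibroblast score), and 4 without the epidermal libraries and 5 with the fibroblast score (from 8, p95HER2). In the change between days (3) they became 0 with the digits term, 1 with the fibroblast or macrophage score and 0 with the endothelial score. All genes called at day 10 (5636) became 3212 with the muscle score, 1375 with the digits term, and 893, 2078 and 3521 with the fibroblast, macrophage and endothelial scores. At day 22 (617) they became 1418 with weights, 228 without epidermal libraries, 400 with the macrophage and 307 with the endothelial score. Over time in FL-HER2 (7011) they became 2953, 469 and 4015 with the digits term, fibroblast and endothelial scores. In the change between days (2682) they became 4577 with weights, 1659 without epidermal libraries, 233 with the digits term, and 363 and 264 with the fibroblast and endothelial scores. The cause of these moves was not tested; the digits term rests on the 2 FL-HER2 day 10 libraries with 3 digits.

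Signs changed for Plat at day 10 (0.40 digits term, 0.57 fibroblast, 0.14 endothelial score), Tfpi at day 10 (0.21 fibroblast), Mrc2 and Serpinf1 at day 10 (0.11 and 0.24 fibroblast) and Tfpi at day 22 (-0.23 endothelial). Over time they changed for Tfpi with the fibroblast score (0.0902 in FL-HER2, 0.0907 in p95HER2) and for Serpinb2 in FL-HER2 (0.13 quantile, 0.10 digits, 0.33 fibroblast, 0.46 endothelial). In the change between days they did for Plaur (-0.10 quantile, -0.0352 log2(CPM + 1), -0.0157 weights, -0.0500 muscle, -0.13 fibroblast, -0.18 macrophage, -0.0585 endothelial), Tfpi2 (-0.0315 quantile, -0.0032 log2(CPM + 1), -0.18 fibroblast), Tfpi (-0.14 endothelial), Mrc2 (-0.0880 digits, -0.10 fibroblast, -0.18 endothelial) and Serpinf1 (-0.0882 fibroblast).

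Leaving out 1 library at a time gave 6 to 8 members called at day 10, 1 to 5 at day 22, 7 to 7 over time in FL-HER2, 6 to 8 in p95HER2 and 2 to 3 in the change between days. The 1 came without FL-HER2 day 22 replicate 1 or 3 and the 5 without replicate 6. Genes called at day 22 ran from 339 to 892; 339, 370 and 411 came without FL-HER2 replicates 1, 3 and 8, and 408, 405 and 355 without p95HER2 replicates 4, 9 and 10. Tfpi at day 22 turned to -0.0582, -0.0141 and -0.0175 without FL-HER2 replicate 4 and p95HER2 replicates 2 and 5, and the Plaur change between days to -0.0195, -0.000772, -0.0359 and -0.0424 without FL-HER2 day 10 replicate 4, p95HER2 day 10 replicates 4 and 5 and FL-HER2 day 22 replicate 1.

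Scaling mattered for the background: 36.7% of day 10 calls were higher, against 49.1% with median-of-ratios factors, 63.4% with quantile normalization, 51.5% with log2(CPM + 1) and 51.2% with voom. The share was 40.4% over time in FL-HER2 (62.5% quantile, 62.4% log2(CPM + 1), 61.9% voom), 47.1% in p95HER2 (64.3% log2(CPM + 1), 64.6% voom), 68.5% for the change between days (56.6% median-of-ratios, 42.7% quantile, 56.1% log2(CPM + 1), 54.7% voom), and 66.0% at day 22 (75.5% quantile, 78.5% without epidermal libraries). Quantile normalization raised the median of all genes by 0.11 at day 10 and over time in FL-HER2, where log2(CPM + 1) and voom raised it by 0.11 and 0.12. No paired analysis was possible because replicate numbers follow the order of the records. Depth limits Serpinb2 most, with 2 to 138 reads per library.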

Other observations

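Some libraries held the extreme of their group for several members at once. FL-HER2 day 22 replicate 6 was the highest of its 9 libraries for 5 of the 8 genes, Plaur, Plat, Serpinb2, Tfpi and Tfpi2. It was also the shallowest library of the study (21772259 reads). Its summed endothelial (214 CPM), mammary epithelial (2301 CPM) and neutrophil markers (17.5 CPM) were the highest of the group. Its summed macrophage markers (616 CPM) were the lowest. In p95HER2 day 10 replicate 5 the lowest values of the group were found for 4 of 8 genes, Plaur, Plat, F3 and Tfpi2, and its summed macrophage markers (369 CPM) were the lowest of the group too. Replicate 4 of the FL-HER2 day 22 tumors was lowest for Plau, Serpine2 and Tfpi, and its fibroblast markers summed to 1016 CPM, the lowest of that group.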
